A study of Mus musculus with 6 samples.

Results

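The tight junction genes of the collecting duct described here are 9: the claudins Cldn3, Cldn4, Cldn7 and Cldn8, the membrane proteins occludin (Ocln) and junctional adhesion molecule A (F11r), and the cytoplasmic scaffold proteins Tjp1 (ZO-1), Tjp3 (ZO-3) and cingulin (Cgn). They were chosen by name, as claudins of the collecting duct and scaffold genes of the junction, and the rule uses no measured value, although earlier results of these data were known when they were chosen. They are 9 of the 24897 genes to which counts could be assigned. RNA came from collecting duct cells of inbred C57BL/6J males kept for 5 days on food with 0.01 to 0.02% sodium (Low-NaCl diet, 3 libraries) or with 2.4% sodium (High-NaCl diet, 3 libraries). Both groups share strain and sex, and the labels do not give the ages, the way the cells were isolated or the number of mice behind a library. Since libraries may share animals or a preparation, p-values here reflect library-to-library spread that may be technical.

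Tight junctions seal the space between neighbouring epithelial cells. Claudins span the membrane and form the paracellular barrier or its ion-selective pores, while ZO proteins and cingulin tie them to the actin cytoskeleton. In the collecting duct, claudin-4 and claudin-8 are described as partners in a chloride-permeable paracellular path, which lets chloride follow the sodium that principal cells take up. The comparison of the diets asks whether transcripts of this barrier differ between a low and a high sodium intake.

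The 6 libraries held 40101899 to 46861531 counts. Mitochondrial transcripts took 20.5% to 21.8% of the counts on the low-NaCl diet, and 29.9%, 21.9% and 28.7% in high-NaCl libraries 1, 2 and 3. The labelled cell type was present by its markers: Aqp2, the water channel of principal cells, measured 2869.8 ± 744 against 6963 ± 1174 counts-per-million (CPM, scaled between libraries), low- against high-NaCl, and Foxi1, a transcription factor of intercalated cells, 389.5 ± 121 against 147 ± 15.4 CPM. Marker genes of principal cells summed to 4580 to 6522 CPM on the low-NaCl diet and 10259 to 13139 CPM on the high-NaCl diet, and 3 of 9 tested, Aqp2, Aqp3 and Scnn1g, fell. All 9 were below 0 on the log2 scale, 8 at an unadjusted p under 0.05, and DESeq2 called 7 lower. Aqp2 was the largest part of that sum. Rhcg, the next highest, measured 1731 ± 445 against 1900 ± 373 CPM and did not pass (edgeR adjusted p = 0.803). Those of intercalated cells summed to 3181 to 6141 CPM against 2027 to 2403 CPM, and 7 of 12 rose, with 11 at an unadjusted p under 0.05 and 10 called by DESeq2. Those of the connecting tubule, the segment before the collecting duct, summed to 28703 to 31831 CPM against 30096 to 38923 CPM, and 2 of 3, Calb1 and Trpv5, fell. Most of this sum was the third, Klk1, at 29412 ± 1671 against 32958 ± 4629 CPM, which did not pass (edgeR adjusted p = 0.715). In such bulk RNA, fewer cells of a type and less RNA per cell cannot be told apart. Emcn of endothelium, with 65.9% of its exonic bases countable, was at 0 in every library. The zeros of Pecam1, Ptprc, Cd68 and Pdgfrb, of whose exonic bases 0%, 19.2%, 2.68% and 0.350% could be counted, say little or nothing about endothelial, immune or stromal cells. The summed endothelial, immune and urothelial markers reached at most 7.31, 0.459 and 17.9 CPM, and stromal and podocyte markers lay between 11 and 42.5 CPM.

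How much of a gene could be counted differed widely among the 9. The authors counted reads per annotated transcript, and a read that touched more than 1 transcript identifier was not counted, so only bases that lie in the exons of a single identifier could give a count. For Cldn4, Cldn8 and F11r, each annotated with 1 identifier, 100% of the exonic bases were countable, and for Cldn3 96.5%. Cldn7 had 606 countable bases of 1453 (41.7%). Tjp3 had 338 of 3149 (10.7%), Tjp1 279 of 7114 (3.92%), Cgn 111 of 6030 (1.84%) and Ocln 32 of 3267 (0.979%). Cldn3, Cldn4 and Cldn8 are single-exon transcripts here, and the scaffold genes have up to 28 exons. Low values of Tjp1, Tjp3, Ocln and Cgn in these files therefore describe short stretches of each gene and not the gene's expression.

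**Figure D1:**
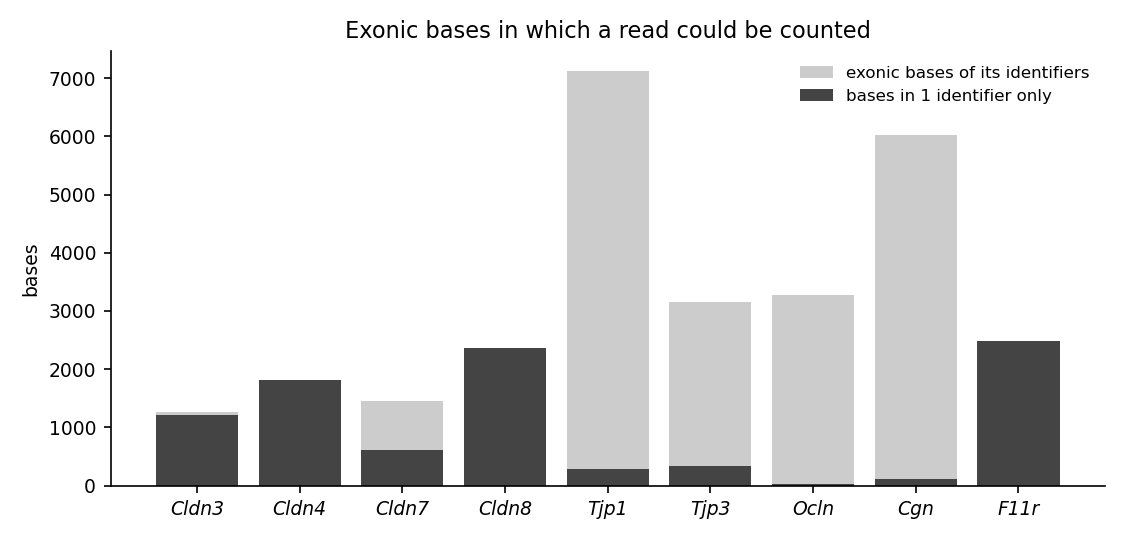
Exonic bases of each of the 9 genes (light bars, y axis in bases) and the part that lies in 1 identifier only, where a read could be counted (dark bars). Cldn4, Cldn8 and F11r are filled to the top, while Tjp1, Cgn and Ocln have 279, 111 and 32 such bases.

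For Tjp1 and Tjp3 the counted stretches can be named, and they are shown because the values of both genes rest on them alone. The counts of Tjp1, 186 in all, came from one coding exon of 240 bases (80 codons) on the minus strand of chromosome 7, chr7:65314093-65314332 in GRCm38, the assembly also called mm10. This exon is in 1 of the 3 counted identifiers and in 1 of 7 GENCODE transcripts of the gene. The Tjp1 values therefore count only transcripts that hold it, and splicing of the exon and the level of the gene cannot be told apart. ZO-1 is known to be made with or without an alternatively spliced segment, the alpha domain. Of the exon's reading frames, 1 holds no stop codon. The exon, 5′ to 3′ as transcribed and all in lower case, reads:
Tjp1 counted exon: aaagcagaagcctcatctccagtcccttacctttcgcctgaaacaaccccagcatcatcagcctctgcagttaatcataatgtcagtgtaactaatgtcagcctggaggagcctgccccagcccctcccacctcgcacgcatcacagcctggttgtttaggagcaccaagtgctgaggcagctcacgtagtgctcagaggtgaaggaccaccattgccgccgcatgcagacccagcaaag

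The 2 countable exons of Tjp3 are alternative first exons, both non-coding, and lie next to each other on the minus strand of chromosome 10. The upstream one (118 bases, chr10:81291464-81291581) held 2 counts in all libraries together, and the downstream one (220 bases, chr10:81291048-81291267) held 544. In the single libraries the downstream exon had 78, 79 and 111 counts on the low-NaCl diet and 72, 132 and 72 on the high-NaCl diet. The upstream exon had 1 count in low-NaCl library 2, 1 in high-NaCl library 2 and 0 in the others. The counts of Tjp3 thus came nearly all from the downstream first exon on both diets. The DNA before each start is printed below from RefSeq's promoter table (GRCm38.p6), 5′ to 3′ along the minus strand, with CG dinucleotides in capitals. The upstream window is chr10:81291582-81291831. The downstream window, chr10:81291268-81291463, leaves out the bases that belong to the upstream exon.
Tjp3 upstream start: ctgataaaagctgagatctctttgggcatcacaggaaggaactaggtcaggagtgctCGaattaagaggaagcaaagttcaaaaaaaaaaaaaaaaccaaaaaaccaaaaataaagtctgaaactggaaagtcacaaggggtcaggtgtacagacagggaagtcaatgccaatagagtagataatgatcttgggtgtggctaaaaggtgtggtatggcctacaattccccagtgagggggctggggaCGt
Tjp3 downstream start: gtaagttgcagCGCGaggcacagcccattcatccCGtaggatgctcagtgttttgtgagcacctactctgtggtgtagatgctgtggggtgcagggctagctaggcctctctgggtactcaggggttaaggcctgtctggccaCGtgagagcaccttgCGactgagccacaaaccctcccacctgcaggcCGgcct

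The 196 bases before the downstream start held 6 CG dinucleotides at 59.7% G and C. Its full window of 250 bases, which reaches into the upstream exon, held 7 at 57.2%. The 250 bases before the upstream start held 2 at 43.2%. Over the 32851 windows of 250 bases in the promoter table the median number of CG dinucleotides was 6, with quartiles of 2 and 16. Neither stretch held a TATA box (TATAAA, in 12.4% of all windows), a GC box (GGGCGG, in 32.7%) or the core of the site read by grainyhead-like factors, regulators of epithelial junction genes (AACNNGTT, in 3.64%), on either strand. Of the other promoters in the table, the GC box occurred before Cldn3, Cldn4, F11r, Ocln, Tjp1 and Cgn and before the downstream start of Cldn7. The grainyhead-like core occurred, of the 8 genes matched in that table, before Cgn only. Cldn8 was not matched in that table. A match is a description of letters and not a binding site.

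Within the 9 genes, the level per kilobase of countable exon was, as counted, highest for Cldn8 and Cldn4. On the low-NaCl diet Cldn8 stood at 157 ± 23.9 CPM per kilobase (SD, n = 3, as for all levels and shares). Cldn4 stood at 135 ± 19.0, F11r at 121 ± 14.7, Cldn7 at 89.4 ± 8.56 and Cldn3 at 57.7 ± 8.02. After a log2 fold change, ± gives the SE of the fit. The ranges of Cldn8 and Cldn4 overlapped, as did those of Cldn4 and F11r, while those of F11r and Cldn7 and those of Cldn7 and Cldn3 did not. Cldn7 was counted only in non-coding stretches of 464 and 142 bases. A read that reached a neighbouring shared base was dropped, while the level divides by all countable bases. The level of Cldn7 is thus too low by an unmeasured amount, and its place in this order is not settled. On the high-NaCl diet the means were 193 ± 40.4 for Cldn8, 179 ± 41.2 for Cldn4, 105 ± 40.6 for F11r, 91.5 ± 22.0 for Cldn3 and 85.3 ± 11.3 for Cldn7. There the range of each gene overlapped that of its neighbour in the order. Compared within a library, Cldn8 exceeded Cldn4 in 5 of 6 and Cldn4 exceeded F11r in 6 of 6. Averaged over both diets, Cldn8 and Cldn4 lay at the 93.2 and 92.5 percentiles of the 7136 tested genes with at least 50% countable bases, F11r at 90.3 and Cldn3 at 86.1. Tjp3 (6.29 ± 1.27 against 6.35 ± 1.02 CPM per kilobase, low- against high-NaCl) and Tjp1 (3.10 ± 0.719 against 2.20 ± 0.820) were far lower as counted. These values cover only their short countable stretches and are too low for the same reason, so they do not rank these genes against the others.

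The claudins Cldn3, Cldn4 and Cldn8 had higher means on the high-NaCl diet, by fitted folds of 1.59, 1.33 and 1.23, while Cldn7 and the counted exon of Tjp3 differed by 1.05-fold and 1.01-fold. F11r and the counted exon of Tjp1 had the higher mean on the low-NaCl diet, by 1.15-fold and 1.41-fold. None of these differences passed the test over all genes, and the libraries of the diets were apart for Cldn3 alone. Of the 9 genes, 7 had enough counts to be tested, and 0 of them passed the threshold in edgeR's quasi-likelihood test (adjusted p under 0.05, Benjamini-Hochberg over 10534 genes). Over all tested genes 3.41% passed, 1.7% higher and 1.71% lower on the low-NaCl diet. At an unadjusted p under 0.05 there was 1 of the 7, Cldn3, and the same gene was the 1 that DESeq2 called. The share of all tested genes at that unadjusted p is not given here. Counts at it, for these genes and for every list, therefore have no background to be read against. DESeq2's calls over all genes stand in the closing section. The log2 fold change, low-NaCl minus high-NaCl, was above 0 for 3 genes and below 0 for 4, with a median of -0.02 beside -0.0021 over all tested genes. The libraries of the diets did not overlap for 1 gene of the 7, which was lower on the low-NaCl diet. Over all tested genes that was so for 11.6% in the same direction and 23.8% in either.

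**Figure D2:**
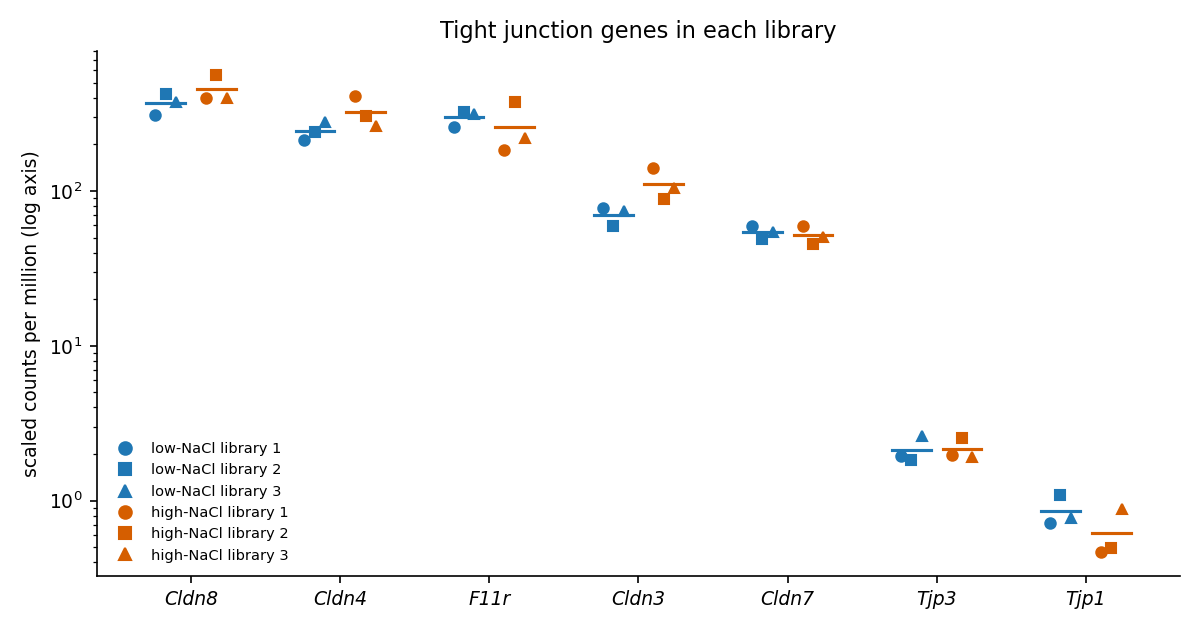
Scaled counts-per-million (log y axis) of the 7 tested genes in each of the 6 libraries, low-NaCl in blue and high-NaCl in orange, with the symbol marking the library number and a line at the mean of the 3 libraries. The diets are apart for Cldn3, from 59.2 to 77.4 against 88.9 to 141 CPM, and overlap for the other 6 genes.

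Of the 4 claudins among the 9 genes, Cldn3 had the largest fitted difference. Claudin-3 is a sealing claudin, and its gene (chr5:134986214-134987472, plus strand) lies 39279 bases from that of Cldn4 (chr5:134945119-134946934, minus strand). Cldn3 measured 77.4, 59.2 and 74.4 CPM in low-NaCl libraries 1, 2 and 3, and 141, 88.9 and 105 CPM in high-NaCl libraries 1, 2 and 3. Every high-NaCl library lay above every low-NaCl one, with low-NaCl library 1 and high-NaCl library 2 nearest to each other. The means were 70.3 ± 9.78 and 111 ± 26.8 CPM. The log2 fold change was -0.66 ± 0.19 (SE), with a 95% interval from -1.08 to -0.25, which is 1.59-fold higher on the high-NaCl diet (1.19 to 2.12). It did not pass in edgeR (adjusted p = 0.0907). It passed under DESeq2 (adjusted p = 0.0269), without the filter on low counts (0.0348, edgeR) and without high-NaCl library 2 (0.0294, edgeR), and over all alternatives its adjusted p ran from 0.00864 to 0.433. The 2 highest libraries, high-NaCl 1 and 3, are also those with over 25% mitochondrial counts. Without both, high-NaCl library 2 is alone in its group, and its spread is assumed to be that of the low-NaCl libraries. On that basis the log2 fold change was -0.35 ± 0.18 (edgeR adjusted p = 0.433). The summed principal cell markers were higher on the same diet as Cldn3. The part of these cells and of the mitochondrial share in the difference was not tested.

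Cldn4 encodes claudin-4, on which prostasin, a channel-activating protease, is known to act. It measured 212, 241 and 280.5 CPM in the low-NaCl libraries, and 408, 305 and 263 CPM in the high-NaCl libraries. High-NaCl library 3 lay below low-NaCl library 3, so the diets overlapped. The means were 245 ± 34.5 and 325 ± 74.7 CPM, the log2 fold change -0.41 ± 0.19 (95% interval -0.84 to 0.01), and the adjusted p by edgeR 0.291. The files' names give lane 2 for low-NaCl libraries 2 and 3, and lane 3 for high-NaCl libraries 2 and 3. For every gene here, lane and diet cannot be told apart in those libraries. Library 1 of each diet carries lane 1 in its file name. With lane as a term, which rests the diet difference on that pair, the log2 fold change was -0.95 ± 0.24 for Cldn4 (edgeR adjusted p = 0.248) and -0.87 ± 0.24 for Cldn3 (edgeR adjusted p = 0.285). Without high-NaCl library 1 that of Cldn4 was -0.22 ± 0.16 (edgeR adjusted p = 0.611).

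Cldn8 encodes claudin-8, which is known to carry claudin-4 to the junction (chr16:88560828-88563183, minus strand). Its levels were 309.6, 422 and 377 CPM on the low-NaCl diet and 397, 564 and 401 CPM on the high-NaCl diet. Only high-NaCl library 2 stood above all low-NaCl libraries. The means were 369 ± 56.4 and 454 ± 95.3 CPM, with a log2 fold change of -0.30 ± 0.19 (95% interval -0.72 to 0.12; edgeR adjusted p = 0.448). The interval leaves room for Cldn8 to be 1.65-fold higher on the high-NaCl diet or 1.09-fold lower. Its size depended on high-NaCl library 2, the highest of all 6: without it the log2 fold change was -0.11 ± 0.16 (edgeR adjusted p = 0.704), and with it as the only high-NaCl library, without 1 and 3, it was -0.62 ± 0.21 (edgeR adjusted p = 0.236). Without low-NaCl library 1 it was -0.19 ± 0.21 (edgeR adjusted p = 0.662).

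The ratio of Cldn4 to Cldn8 per kilobase, which does not depend on the scaling between libraries, was 0.890, 0.746 and 0.970 in the low-NaCl libraries and 1.34, 0.703 and 0.854 in the high-NaCl libraries. High-NaCl library 1 was the one library in which Cldn4 exceeded Cldn8, and the other 5 ratios were interleaved. On the log2 scale the diets differed by -0.11 (exact permutation test, two-sided, p = 0.9; the smallest p that 3 against 3 allows is 0.1). The difference between the single pair on lane 1 was -0.59, and without the 2 libraries of over 25% mitochondrial counts, which leaves 1 high-NaCl library, it was 0.30.

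Cldn7 encodes claudin-7, which lies along the basolateral membrane as well as at the junction (chr11:69964779-69967885, plus strand). It varied least of the 7. It measured 59.4, 49.0 and 54.2 CPM on the low-NaCl diet and 59.2, 45.7 and 50.3 CPM on the high-NaCl diet, and the highest library was 1.30 times the lowest. Its log2 fold change was 0.07 ± 0.14 (95% interval -0.25 to 0.39; edgeR adjusted p = 0.844), so that a 1.31-fold higher or 1.19-fold lower level on the low-NaCl diet is within the interval. Its share of the 4 claudins' summed level per kilobase, as counted, was 20.5 ± 3.01% on the low-NaCl diet and 15.6 ± 1.84% on the high-NaCl diet. The single libraries were at 23.9%, 18.3% and 19.2% against 16.1%, 13.6% and 17.1%, which do not overlap. The shares of Cldn8, at 35.6 ± 4.37% and 35.3 ± 7.64%, of Cldn4, at 30.7 ± 2.42% and 32.5 ± 4.02%, and of Cldn3, at 13.2 ± 2.25% and 16.6 ± 3.12%, did. A share also moves with the other claudins, and Cldn3, Cldn4 and Cldn8 had higher means on the high-NaCl diet. The share of Cldn7 is thus no measure of a diet difference in Cldn7 itself. It was not tested, and the levels of 23.8% of all tested genes did not overlap either.

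Cldn7 also has 2 annotated starts, and its counts split between them. Of its reads 13214 fell in the 464 countable bases of the downstream first exon (chr11:69965421-69965884) and 60 in the upstream first exon (142 bases, chr11:69964779-69964920). The upstream exon held 8, 5 and 8 counts on the low-NaCl diet and 16, 12 and 11 on the high-NaCl diet, so it took 0.305 ± 0.0634% and 0.609 ± 0.123% of the gene's counts. The libraries did not overlap, a pattern chosen after its values were seen and given as a description. Tested as a transcript of its own, the upstream identifier had a log2 fold change of -0.92 ± 0.52 (edgeR adjusted p = 0.408). With 5 to 16 counts a library, exact binomial 95% intervals for the share reached from 0.0754% to 1.2%.

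F11r (chr1:171437535-171464603, plus strand) encodes an adhesion molecule that recruits polarity proteins to the junction. It had 258, 326 and 315 CPM on the low-NaCl diet and 184, 374 and 221 CPM on the high-NaCl diet. High-NaCl library 2 was the highest of all 6 and libraries 1 and 3 of that diet the lowest, so the high-NaCl mean (259.6 ± 100.7 CPM) carries a wider spread than the low-NaCl mean (299 ± 36.6 CPM). The log2 fold change was 0.21 ± 0.25 (95% interval -0.34 to 0.76; edgeR adjusted p = 0.713). Its size depended on high-NaCl libraries: without library 2 it was 0.56 (edgeR adjusted p = 0.0753), without library 1 it was 0.0023, and without libraries 1 and 3 together, which leaves library 2 as the only one of its diet, it was -0.33 (edgeR adjusted p = 0.507). Libraries 1 and 3 are those with over 25% mitochondrial counts, and the part of that share was not tested.

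**Figure D3:**
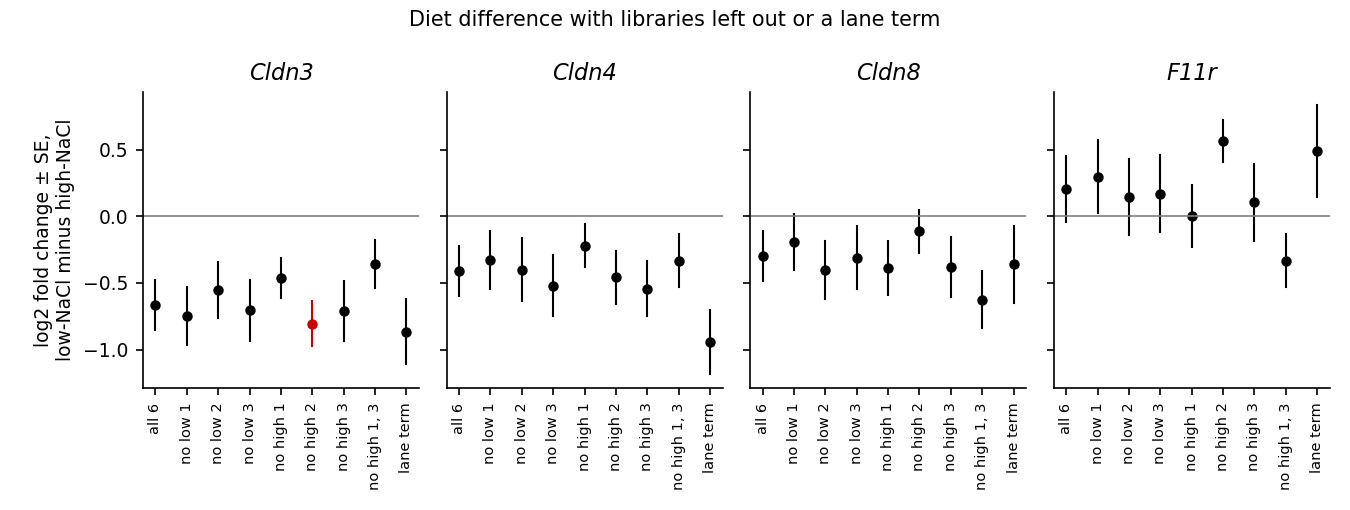
Log2 fold change, low-NaCl minus high-NaCl, ± SE (y axis) of Cldn3, Cldn4, Cldn8 and F11r from all 6 libraries, with each library left out in turn, without high-NaCl libraries 1 and 3 (1 high-NaCl library left), and with a lane term (x axis). Cldn3 and Cldn4 stay below 0 in each, Cldn3 passes the threshold only without high-NaCl library 2 (red), and F11r lies at -0.33 without high-NaCl libraries 1 and 3.

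For the scaffold genes only the stretches shown above were measured. The Tjp1 exon had 0.720, 1.09 and 0.778 CPM on the low-NaCl diet and 0.467, 0.497 and 0.878 CPM on the high-NaCl diet, from 17 to 48 counts a library. Low-NaCl library 2 was the highest, and high-NaCl library 3 lay among the low-NaCl libraries. Its log2 fold change was 0.50 ± 0.38 (95% interval -0.35 to 1.34; edgeR adjusted p = 0.538), and the interval reaches from 2.54-fold higher to 1.27-fold lower on the low-NaCl diet. With each library left out in turn it ran from 0.29 without low-NaCl library 2 to 0.84 without high-NaCl library 3. With high-NaCl library 2 alone in its group it was 0.78 ± 0.52. Tjp3 had 1.94, 1.82 and 2.62 CPM against 1.98, 2.54 and 1.91 CPM, with a log2 fold change of -0.02 ± 0.25 (95% interval -0.58 to 0.54; edgeR adjusted p = 0.979). Ocln held 1 count in high-NaCl library 1, 1 in high-NaCl library 3 and 0 in the others, and Cgn held 0 in all 6. A count of 0 allows up to 3 counts, or 0.0574 to 0.0825 CPM depending on the library, from 32 and 111 countable bases, and says nothing about the level of either gene elsewhere. The 32 bases of Ocln are separate stretches of 15 and 17 bases. A read that reached a neighbouring shared base was dropped, so for Ocln this limit says little even there. These limits for a count of 0 cover counting error only. Of the 50-base words of Cgn's transcripts, 17.2% also occur in another gene, against 0% for the claudins, Tjp1, Tjp3 and Ocln and 0.868% for F11r.

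Some genes followed a member closely over the 6 libraries, among 3931 genes whose log2 CPM averaged 4 or more. Pearson's r to Cldn3 was highest for Psmd1 (0.997), Marveld1 (0.994) and Unc119 (0.993), and 213 genes exceeded 0.9. For F11r these were Ifrd1 (0.998), Hist2h2be (0.996) and Sumf1 (0.990), with 247 above 0.9, and for Cldn7 Sgsm3 (0.995), Slc25a38 (0.995) and Nudt3 (0.994), with 212. Cldn8 was followed most closely by Dnajc8 (0.993), Xrcc4 (0.983) and Snx4 (0.979), and Cldn4, with 19 genes above 0.9, by Hoga1 (0.970), Wwox (0.963) and Atad1 (0.958). The counted exon of Tjp1 was nearest to Wdr26 (0.974) and that of Tjp3 to Stxbp6 (0.931). These values describe 6 libraries that differ in diet, depth and mitochondrial share, and carry no test. None of these genes passed the diet comparison.

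Of 20 other claudins, 19 were matched and 10 tested, with 1 higher and 0 lower on the low-NaCl diet. Their median log2 fold change was 0.19. At an unadjusted p under 0.05 there were 3 higher and 1 lower, and DESeq2 called 2 higher and 0 lower. Cldn2, the cation- and water-permeable claudin known from the proximal tubule, rose, with 65.2, 96.2 and 126 CPM on the low-NaCl diet against 24.7, 42.8 and 40.7 CPM on the high-NaCl diet. All low-NaCl libraries were above all high-NaCl ones. Its means were 95.9 ± 30.5 and 36.1 ± 9.89 CPM, a log2 fold change of 1.41 ± 0.26 (edgeR adjusted p = 0.0249). The call ended when any library other than low-NaCl 1 was left out: it was 1.41 (edgeR adjusted p = 0.0785) without low-NaCl 2, 1.16 (0.0660) without low-NaCl 3, 1.19 (0.0605) without high-NaCl 1, 1.55 (0.0539) without high-NaCl 2 and 1.5 (0.0872) without high-NaCl 3. Markers of the proximal tubule, a list that holds Cldn2 itself, summed to 86.4 to 165 CPM on the low-NaCl diet and 61.7 to 75.8 CPM on the high-NaCl diet. Of 8 tested, 1 rose, which was Cldn2, and Lrp2, a defining gene of that segment, measured 15.8 ± 13.1 against 13.1 ± 3.22 CPM. The part of proximal cells in the value of Cldn2 was not tested.

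Cldn16, a claudin of the thick ascending limb, measured 11.8 ± 4.41 against 5.46 ± 1.55 CPM, from 18.9% countable bases. It did not pass (log2 fold change 1.11 ± 0.30, edgeR adjusted p = 0.0771), but did under DESeq2 (0.00841). Markers of the thick limb and distal convoluted tubule, a list that holds Cldn16 itself, summed to 475 to 557 CPM against 359 to 514 CPM. Of 6 tested, 1 rose, Slc12a1, the transporter of the thick limb. Most of the sum was Cldn19, also on that list, at 329 ± 29.3 against 329 ± 64.1 CPM. The part of cells of these segments in the value of Cldn16 was not tested. Cldn19, the partner of Cldn16 in the thick limb, had 98.6 ± 8.76 against 98.7 ± 19.2 CPM per kilobase. Its mean lay between those of Cldn4 and Cldn7 on the same scale, on which Cldn19 and Cldn7 were counted only in part. Cldn17, a claudin that forms anion-selective pores, had 5 to 7 counts in the low-NaCl and 13 to 29 in the high-NaCl libraries (log2 fold change -1.79 ± 0.47, edgeR adjusted p = 0.0715). Cldn1, a barrier claudin, ranged from 2.51 to 24.0 CPM within the low-NaCl diet alone (1.41 ± 0.59, edgeR adjusted p = 0.247). Cldn10, Cldn13, Cldn18 and Cldn22 were at 0 in every library. For Cldn10, Cldn18 and Cldn22 there were 0 countable bases, so their 0 says nothing.

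**Figure D4:**
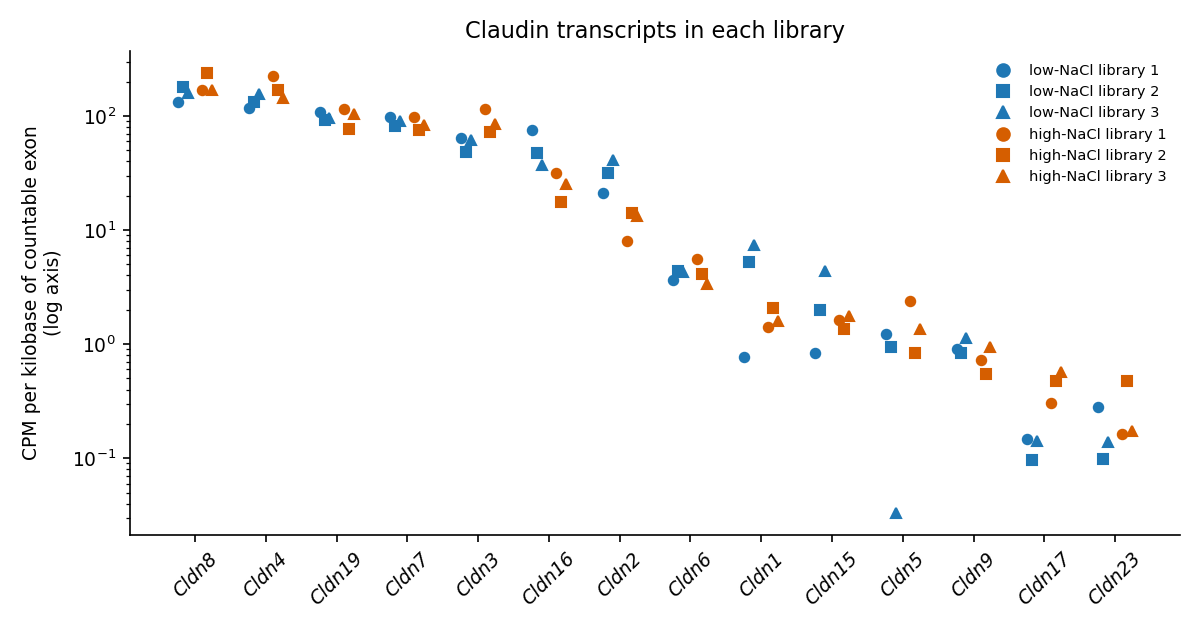
Level of each tested claudin in CPM per kilobase of countable exon (log y axis) in the 6 libraries, low-NaCl in blue and high-NaCl in orange. Cldn8 and Cldn4 are at the top with Cldn19, Cldn7 and Cldn3 next, Cldn2 rose on the low-NaCl diet, and Cldn17 and Cldn23 are lowest.

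Of the other membrane proteins of the tight junction, 6 of 10 were tested, with 1 higher and 0 lower, 2 higher and 0 lower at an unadjusted p under 0.05, 1 and 0 by DESeq2, and a median of 0.19. Marveld3, a relative of occludin, rose. It measured 54.0, 65.1 and 51.1 CPM on the low-NaCl diet and 28.7, 30.9 and 33.7 CPM on the high-NaCl diet, from 80.7% countable bases. The lowest low-NaCl library stood above the highest high-NaCl one. Low- and high-NaCl differed by a log2 fold change of 0.87 ± 0.14 (edgeR adjusted p = 0.0154). It did not pass without low-NaCl library 2 (0.76, edgeR adjusted p = 0.0740) or without high-NaCl library 3 (0.93, adjusted p = 0.0564). Cxadr, a virus receptor and adhesion protein of the junction, had 87.3 ± 5.85 against 67.7 ± 4.24 CPM (0.37 ± 0.12, edgeR adjusted p = 0.146).

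Of 15 tested scaffold and polarity genes, 0 passed in either direction in edgeR and 0 in DESeq2, 1 had an unadjusted p under 0.05, and the median was -0.06. That 1 was Cgnl1, paracingulin, the relative of cingulin, at 19.8 ± 0.883 against 13.3 ± 3.82 CPM from 6.50% countable bases (0.58 ± 0.20, edgeR adjusted p = 0.160). Only 2 of the 23 genes on that list had at least 50% countable bases, so the list was measured in fragments, as Tjp1 and Tjp3 were.

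Among adherens junction genes, which build the belt below the tight junction, 1 of 10 fell and 0 rose (unadjusted p under 0.05: 1 and 2; DESeq2: 1 and 1; median -0.03). Cdh16, the kidney-specific cadherin, fell, from 9.07, 7.11 and 7.61 CPM on the high-NaCl diet to 4.45, 4.21 and 4.53 CPM on the low-NaCl diet, with no overlap. This is a log2 fold change of -0.85 ± 0.18 (edgeR adjusted p = 0.0363), from 9.46% countable bases. It passed with high-NaCl library 2 left out, and not with any other library left out: the log2 fold change was -0.87 without low-NaCl 1 (edgeR adjusted p = 0.0594), -0.82 without low-NaCl 2 (0.171), -0.87 without low-NaCl 3 (0.120), -0.75 without high-NaCl 1 (0.0938) and -0.88 without high-NaCl 3 (0.108). Vcl, vinculin, which links the belt to actin, had 115 ± 14.0 against 78.8 ± 11.7 CPM (0.54 ± 0.15, edgeR adjusted p = 0.0940).

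Of 15 tested claudin partners, proteases and regulators, 0 passed in edgeR, 1 above and 3 below 0 had an unadjusted p under 0.05, DESeq2 called 1 higher and 0 lower, and the median was -0.13. Tfcp2l1, a transcription factor of the collecting duct, had 1108 ± 80.8 against 704 ± 214 CPM (0.65 ± 0.21, edgeR adjusted p = 0.137). Wnk4, a kinase known to act on claudins and on chloride transport, had 169 ± 26.3 against 243 ± 57.4 CPM (-0.53 ± 0.20, edgeR adjusted p = 0.190) from 16.5% countable bases. Among junction genes on these lists, those that passed were therefore Cldn2, Marveld3 and Cdh16, and none is among the 9.

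**Figure D5:**
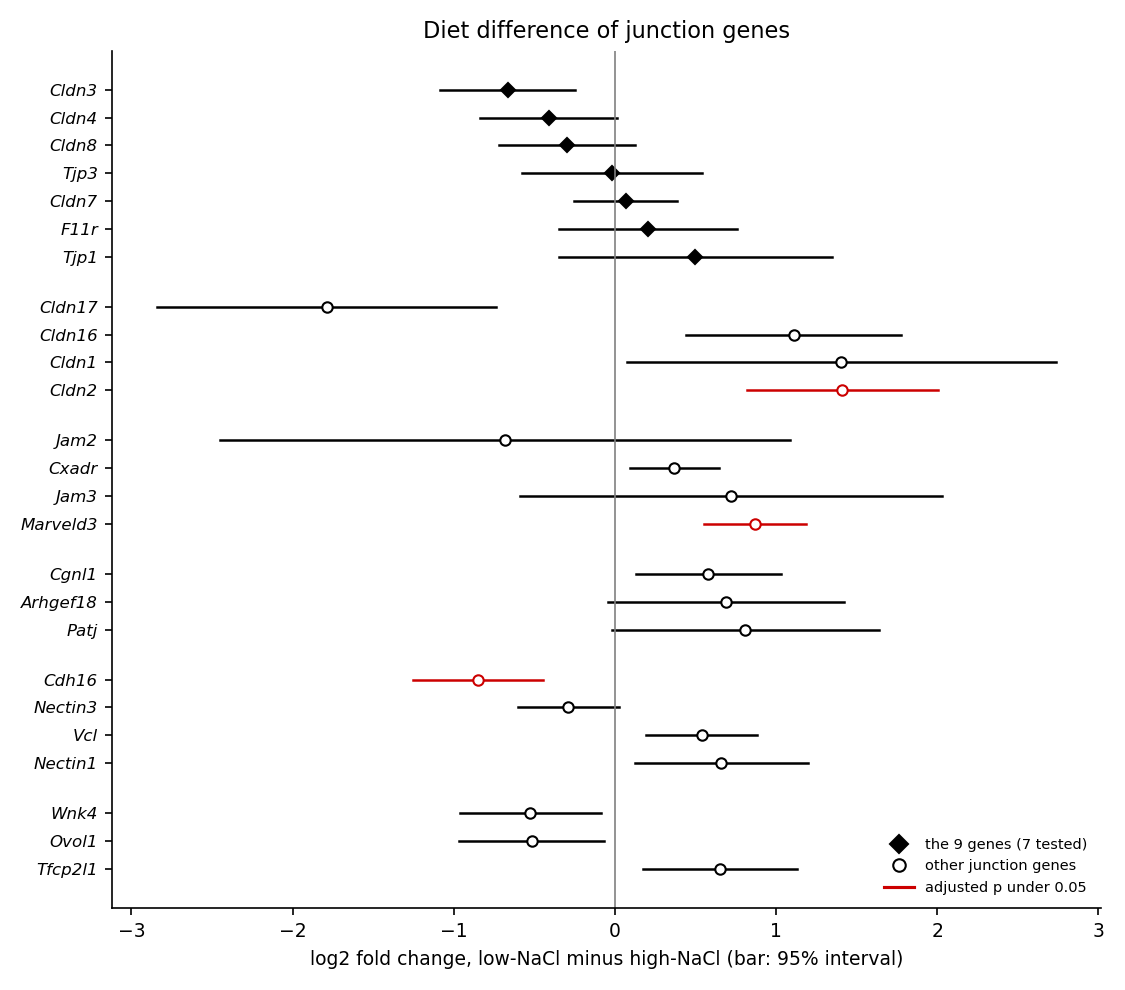
Log2 fold change, low-NaCl minus high-NaCl, with its 95% interval (x axis) of the 7 tested genes of the 9 (black diamonds) and of genes named from the other junction lists (open circles). Red marks the 3 genes that passed, Cldn2, Marveld3 and Cdh16, and the interval of Cldn3 is the one among the 7 that does not reach 0.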

How the data were processed

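RNA of 6 libraries of collecting duct cells was analysed from deposited raw read counts. Per the file headers, featureCounts 1.5.0-p3 was run by the authors on UCSC transcripts (mm10) without strand or overlap options, so by that program's defaults strand was ignored and a read over more than 1 identifier was dropped. FastQC, Subread and edgeR also stand in the submitters' processing notes. Aligner and read length: not given in the sources used here. Reads of genes that overlap on opposite strands are not separated.

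Of 59121 identifiers, 52383 (94.352% of counts) were matched to GENCODE M21 genes by at least 50% of their exonic bases on the same strand, and their counts were summed per gene. The other 6738 (5.648% of counts) entered library sizes only. The diets were compared with edgeR 4.0.16 (R 4.3.3, limma 3.58.1): filterByExpr by diet, TMM factors, glmQLFit with robust estimation and glmQLFTest without covariates. Benjamini-Hochberg adjustment covered the 10534 genes tested, the threshold was 0.05, and the biological coefficient of variation was 21.6%. Levels per kilobase divide CPM by countable bases. Reads that ran from a countable into a shared base were dropped, so levels of genes counted in part are too low by an unmeasured amount. The log2 CPM used to find genes of like pattern had a prior count of 2. Summaries used Python 3.11.15, scipy 1.17.1 and pandas 2.3.3.

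On simulated counts of 10366 genes, 66.3% of genes changed 2-fold and 100% of those changed 4-fold were recovered, and 3.53% of calls were false. These rates hold for the simulated spread only. The largest fitted change among the tested tight junction genes of the collecting duct was smaller, at 1.59-fold for Cldn3. The simulation therefore cannot say how often a change of that size is missed, or what share of the calls in these libraries is false. No replicate pair was a duplicate (chi-square per degree of freedom 38.2 to 247). Depth was 40101899 to 46861531 counts a library, and the precision of a gene also depends on its countable share.

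The 9 genes and the lists were chosen with earlier results of these data known. Named were the 9 genes, every called gene and otherwise up to 3 genes of smallest p of each junction list, up to 2 markers of highest CPM and the called genes of each marker list, and the 3 genes most like each tested member. Lrp2 and Foxi1 stand as such markers, and Cldn10, Cldn13, Cldn18, Cldn22 and the split of Cldn7 between its starts were named after their values were seen. Cldn25 was not matched. Alternatives were median-ratio and total-count scaling, no filter, DESeq2 1.42.0, a block for the replicate number, a lane term (lane read from the files' names), each library left out, each identifier alone, matching by at least 90% of bases, and, added after the data were seen, leaving out the 2 libraries with over 25% mitochondrial counts.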

Additional observations from a re-analysis of the deposited data

How the results depend on the processing

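Cldn3, Cldn4, Cldn8 and Tjp1 kept their direction under each of 15 alternatives, and Cldn7, Tjp3 and F11r, whose differences were small beside their errors, did not. The log2 fold change of Tjp3 was 0.0548 with total-count scaling, and that of F11r was -0.33 without the 2 libraries with over 25% mitochondrial counts, a comparison of 3 low-NaCl libraries with 1 high-NaCl library whose spread is assumed to be theirs. Cldn3 passed without the filter on low counts (-0.67), under DESeq2 (-0.68) and without high-NaCl library 2. With each library left out in turn, log2 fold changes ran from -0.81 to -0.46 for Cldn3, -0.54 to -0.22 for Cldn4, -0.40 to -0.11 for Cldn8, 0.29 to 0.84 for Tjp1, -0.015 to 0.17 for Cldn7, -0.19 to 0.13 for Tjp3 and 0.0023 to 0.56 for F11r. The lane term turned Arhgef18 (-0.0020), Cldn1 (-0.86), Jam2 (1.56) and Jam3 (-0.97). Slc12a1 passed under 12 of 15 alternatives and Aqp2 under 9. Total-count scaling shifted the median of all genes by 0.09.

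Calls over all genes, 179 higher and 180 lower, were 80 and 55 with total-count scaling, 401 and 442 with DESeq2, 1 and 2 with the lane term, and 30 and 90 without the 2 libraries of high mitochondrial share. Without the filter 274 were lower. With each library left out they ran from 32 to 285 higher and from 36 to 252 lower. Of the 9 genes, 1 was called lower without the filter and with DESeq2, and 0 to 1 with a library left out. Other claudins called higher were 0 with total-count scaling, the lane term or without the 2 libraries, 2 without the filter or with DESeq2, and 0 to 2 with a library left out. Other membrane proteins called higher were 0 with the lane term or without the 2 libraries, and 0 to 1 with a library left out. Adherens junction genes called higher were 1 with DESeq2 and those called lower 0 with total-count scaling, the lane term or without the 2 libraries, each 0 to 1 with a library left out. Partners and regulators called higher were 1 with DESeq2, those called lower 1 with each identifier alone, each 0 to 1 with a library left out. The log2 ratio of Cldn4 to Cldn8 was -0.59 within lane 1, 0.30 without the 2 libraries, and from -0.31 to 0.16 with a library left out. Where a library was left out fewer samples entered the fit; for the other alternatives the cause was not tested.

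The labels number libraries 1 to 3 in both diets. Deviations from the diet means of same-numbered libraries correlated at 0.192, 0.273 and -0.0742 for numbers 1, 2 and 3. Low-NaCl libraries 1 and 2 correlated best with the high-NaCl library of their own number. Low-NaCl library 3 did so with high-NaCl library 2 (0.101). These few values cannot decide whether the numbers pair the libraries, and the main comparison used no pairing. With the replicate number as a block, 461 genes were called higher and 442 lower. Cldn3 then passed (-0.65, edgeR adjusted p = 0.00864), so 1 of the 9 genes was called lower. The block gave 2 other claudins higher, 2 other membrane proteins higher, 1 adherens junction gene higher, and 1 partner or regulator higher and 1 lower. The small countable share limits Tjp1, Tjp3, Ocln and Cgn, whose few countable bases gave 0 to 133 counts a library.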
